A study of Mus musculus with 49 samples.

Results

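Frontal cortex of mice carrying a conditional human amylin transgene was compared between 10 libraries from tamoxifen-injected mice and 10 libraries from vehicle-injected mice. These are 20 of the 49 libraries of the series, chosen by the prefix of the library title. All 20 mice carried the transgene and received a high fat diet for 4 months. The injection was tamoxifen or vehicle, and brains were taken 2 months after it. The other 29 libraries are 10 of wild-type mice and 10 labelled AKO at 4 months of the diet, and 9 of wild-type mice at 2 months. The library titles start with Cre, but the labels do not give the promoter of the transgene, what drives the recombinase, the sex, strain or age of the mice, the tamoxifen dose, or whether the diet went on after injection. No tamoxifen-injected mice without the transgene were analysed here, so an effect of the drug and an effect of the transgene cannot be told apart. No separate cultures, litters or batches are named, and p-values therefore measure the spread between these libraries.

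Amylin, also called islet amyloid polypeptide, is a hormone secreted with insulin by the beta cells of the pancreas. Its receptors pair the calcitonin receptor with a receptor activity-modifying protein and act on appetite and gastric emptying. Human amylin readily forms amyloid fibrils, whereas the rodent peptide does not, which is why a human transgene is used in mice. Tamoxifen binds the estrogen receptor and is commonly used to switch on a recombinase fused to a modified form of that receptor.

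Neither group showed reads of the mouse gene Iapp beyond a single one. Iapp had 0 reads in the 10 tamoxifen libraries and 1 read in the 10 vehicle libraries, in vehicle library 16. A count of 0 allows up to 0.00632 RPM (reads scaled to library size) over the tamoxifen group (3 reads over the group, counting error only). The table lists mouse genes, and no value of the human transgene was used, which leaves its induction unchecked. In the libraries labelled AKO, Iapp stood at 5.76 ± 0.18 (SD, n = 10) on the deposited log2 scale, with 596 reads in all, against 0 reads in both wild-type groups. That goes against what a knockout label would give, and the AKO libraries are therefore named by their label only.

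No gene passed the test between tamoxifen and vehicle. Of 15270 genes tested with limma on the deposited log2 values, 0 (0%) reached an adjusted p of 0.05, two-sided with Benjamini-Hochberg adjustment, and the lowest adjusted p was 0.9998. An unadjusted p under 0.05 was seen for 503 genes, which is 3.29% of those tested. Of these, 264 (1.73%) had the higher mean with tamoxifen and 239 (1.57%) the lower. The mean was higher with tamoxifen in 49.4% of all genes and lower in 50.6%, and no gene had groups that did not overlap (0%). Limma-voom on reads recovered from the deposited values also called 0 genes, with 466 at an unadjusted p under 0.05.

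The data limit how large a difference can be for most genes. The median absolute difference over all genes was 0.05 on the log2 scale, and the median distance from a difference to the end of its 95% interval was 0.17. The whole interval lay within a 1.5-fold difference in either direction for 83.2% of genes and within 2-fold for 94.6%. Among the 13634 genes with 50 or more reads on average, the shares were 91.4% and 98%. Genes with few reads, and genes that vary between libraries, were measured less closely.

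**Figure D1:**
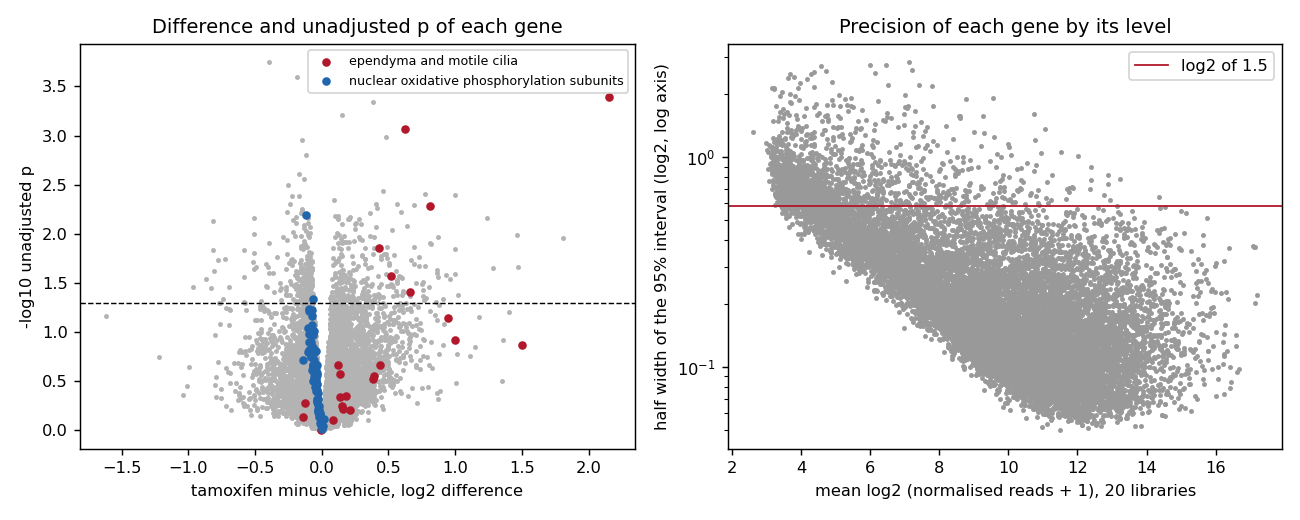
Left, the difference of group means (tamoxifen minus vehicle, log2) against −log10 of the unadjusted p for 15270 genes, with the dashed line at p 0.05. Motile cilia markers (red) lie mostly to the right and oxidative phosphorylation subunits (blue) lie in a narrow band left of 0. Right, the distance from each gene's difference to the end of its 95% interval (log axis) against its mean level. Genes under the red line have a distance below log2 of 1.5.

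The libraries were of similar depth. Recovered reads were 29.2 to 68.8 M reads (mega) per tamoxifen library and 29.8 to 56.5 M per vehicle library, with group means 5.47 M apart (permutation p = 0.322, two-sided, 100000 resamples). The number of genes with a read differed by 164 on average (permutation p = 0.253). The tissue label was checked against markers. Slc17a7, the vesicular glutamate transporter of cortical excitatory neurons, was abundant, at 16.21 ± 0.38 with tamoxifen and 16.25 ± 0.34 with vehicle (SD, n = 10 each). Markers of neighbouring structures were present too and varied strongly between libraries of the same group.

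Olfactory bulb transcripts varied the most. Omp, a protein of mature olfactory sensory neurons, ranged from 3.20 through a median of 6.04 to 11.53 with tamoxifen and from 3.73 through 6.56 to 12.26 with vehicle. Eomes, a transcription factor of bulb projection neurons, reached 10.94 with tamoxifen and 12.39 with vehicle. The groups overlapped almost completely for both genes. Vehicle libraries 1 and 3 and tamoxifen libraries 9 and 16 carried the highest level of the olfactory bulb list, at 3.21, 3.69, 2.66 and 2.18 (mean of members, centred over the 20 libraries, log2).

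The first principal component of the 20 libraries held 38.1% of the variance, with Eomes, Omp, S100a5 and Ms4a15 at its high end. The second held 14.7%, with Lhx8, Six3, Isl1 and Nkx2-1, genes of the basal forebrain and striatum, at its low end. No difference of group means on components 1 to 5 passed a permutation test. The smallest permutation p was 0.109, for component 4 (adjusted p = 0.543 over the 5), and component 1 gave 0.617.

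**Figure D2:**
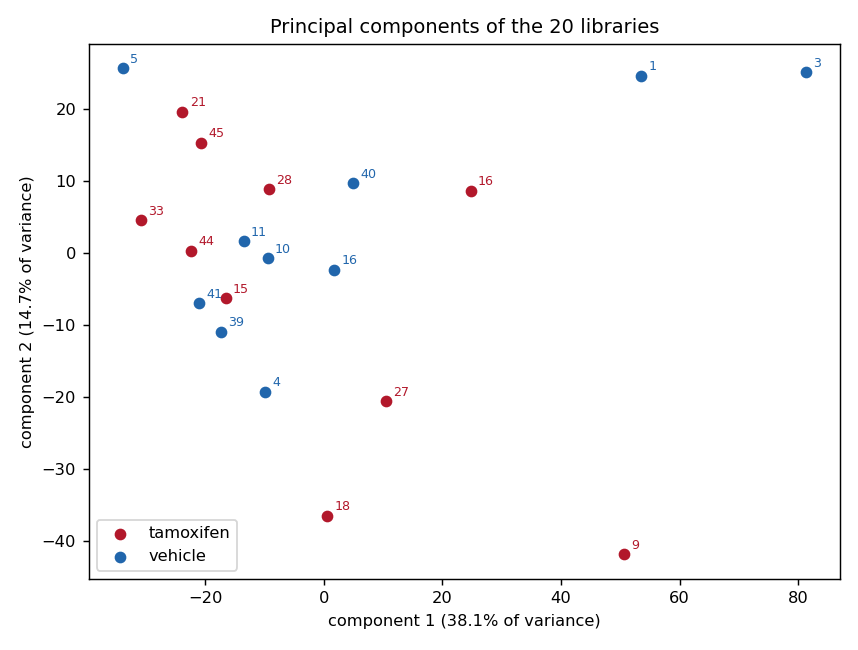
Scores of the 20 libraries on principal components 1 and 2, labelled by the number in the library title; red marks tamoxifen and blue marks vehicle. Both groups spread over the same area, and vehicle libraries 1 and 3 and tamoxifen library 9 lie at the far right.

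Libraries of the hypothalamic and basal forebrain type stood apart within the groups. Calcr, the calcitonin receptor and core of the amylin receptors, had 611 reads over the tamoxifen libraries and 40 over the vehicle libraries. Its reads lay in too few libraries for it to enter the test. Of the 611, tamoxifen library 9 held 393 and library 27 held 128. The median was 1.5 reads per tamoxifen library and 1.0 per vehicle library. Without tamoxifen 9, 18, 27 and vehicle 41, Calcr had 47 and 33 reads, and 44 of the 47 were in tamoxifen library 15, which had about as many as library 18 with 43. The hypothalamic peptide gene Oxt, for oxytocin, had 3268 of its 3647 tamoxifen reads in library 9. Hcrt, for orexin, had 2429 of 2649 in library 27. Vehicle library 41 held 357 of the 369 Hcrt reads of its group. With these 4 libraries left out, 0 genes passed the test. The same held with the levels of the olfactory bulb, striatal, and thalamic and hypothalamic lists as covariates. Some differences without the 4 libraries are given below. Whether tissue from these regions is the cause of a difference was not tested.

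Of the amylin family and its receptors, 8 of 12 members passed the filter on low values, and none of them had an unadjusted p under 0.05. Over all genes 3.29% had one, so none among 8 members says little. Ramp1, a receptor activity-modifying protein, was at 11.28 ± 0.11 with tamoxifen and 11.31 ± 0.12 with vehicle, a difference of -0.03 (95% interval -0.14 to 0.08). Ramp3, another such protein, differed by 0.16 with a wide interval from -0.40 to 0.73. Calcrl, the receptor for calcitonin gene-related peptide and adrenomedullin, differed by 0.18 (-0.04 to 0.40). Ide, the insulin-degrading enzyme that also cleaves amylin, differed by 0.11 (-0.12 to 0.35). In all, 5 of the 8 intervals lay within 1.5-fold and all 8 within 2-fold, against 83.2% and 94.6% of all genes.

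The estrogen receptor and tamoxifen-related list had 13 of 22 tested members higher and 9 lower, with a median difference of 0.02. Esr1, the estrogen receptor that tamoxifen binds, ranged from 7.35 through 7.73 to 8.49 with tamoxifen and from 5.40 through 7.61 to 8.09 with vehicle. The difference was 0.38 (SE 0.27, unadjusted p = 0.177), and the lowest vehicle values were those of vehicle libraries 1 and 3. Prlr, the prolactin receptor, was the list's only member with an unadjusted p under 0.05 (0.0111). It ranged from 3.33 through 4.60 to 8.61 with tamoxifen and from 1.77 through 3.86 to 5.67 with vehicle. The highest values, 8.61, 7.66, 7.51 and 6.83, were those of tamoxifen libraries 9, 18, 27 and 15. The choroid plexus list had its 4 highest list levels in the same libraries, at 1.79, 1.01, 0.66 and 0.39. Prlr is a member of that list and enters those levels, so the match is partly built in. Tamoxifen libraries 9, 18, 27 and 15 also held the most Calcr reads of their group. With tamoxifen 9, 18 and 27 and vehicle 41 left out, the difference in Prlr was 1.01 in place of 1.81. Tamoxifen 9, 18 and 27 held the highest Prlr values, so a smaller difference is partly set by that choice.

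**Figure D3:**
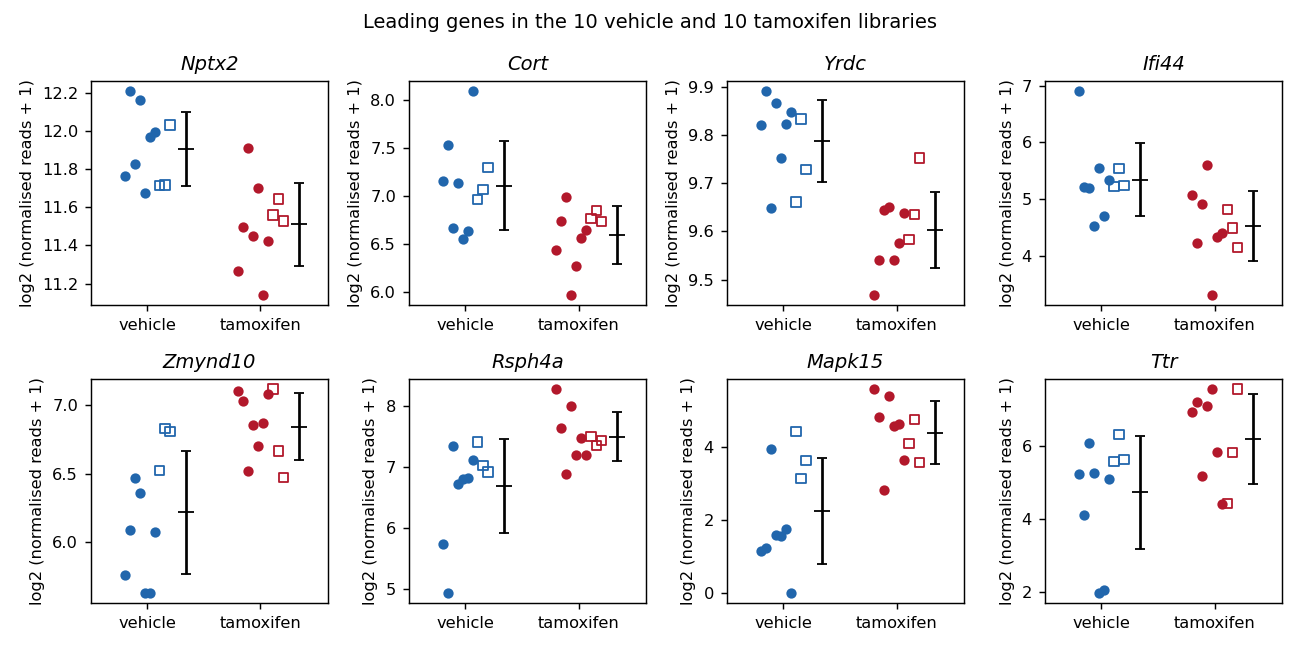
Deposited values, log2(normalised reads + 1), of 8 genes in each library, with mean and SD beside each group (n = 10). Filled circles are libraries with title numbers up to 28, open squares those from 33 on. The groups overlap for every gene. In the lower row the low vehicle values are mostly filled circles, as are most vehicle libraries.

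Of 23 tested markers of ependyma and motile cilia, the cells that line the ventricles and the beating cilia they carry, 20 had the higher mean with tamoxifen and 3 the lower, against 49.4% higher over all genes. The median difference was 0.38, against -0.00 over all genes tested. A total of 6 members had an unadjusted p under 0.05, all higher, against 1.73% of all genes higher at that p, and none passed with adjustment. Without tamoxifen 9 the list's median was 0.21. Since the list was chosen with earlier results known, these counts are a description. In bulk tissue, fewer cells of a type and less RNA per cell cannot be told apart.

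The 6 genes differed in level and in how widely they spread. Zmynd10, a factor for assembly of the dynein arms of motile cilia, ranged from 6.47 through 6.86 to 7.11 with tamoxifen and from 5.64 through 6.22 to 6.82 with vehicle. The groups overlapped, but all 10 tamoxifen values lay above the vehicle median, and the difference was 0.62 (SE 0.16, 95% interval 0.29 to 0.96, unadjusted p = 0.000861). Rsph4a, a radial spoke head protein, ranged from 6.88 through 7.46 to 8.28 with tamoxifen and from 4.93 through 6.87 to 7.41 with vehicle. Its difference was 0.81 (SE 0.26, unadjusted p = 0.00516), and again all 10 tamoxifen values lay above the vehicle median. Mapk15, a kinase found at cilia and at the ependymal surface, ranged from 2.82 through 4.62 to 5.61 with tamoxifen and from 0.00 through 1.67 to 4.45 with vehicle. Its mean read number was 25.5 and 6.1 per library, and the difference was 2.16 (SE 0.51, unadjusted p = 0.000404). The others, Tekt1, Cfap44 and Dynlrb2, differed by 0.43, 0.52 and 0.66, with unadjusted p of 0.014, 0.0269 and 0.0392. Foxj1, the regulator of ciliated cell identity, differed by only 0.08 (95% interval -0.54 to 0.70).

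RefSeq promoters (GRCm38.p6) are given for 3 of these genes because the core of the X-box, the motif of RFX factors that control cilia genes, lies within the 250 bases before the start. Capitals mark the core GTTGCC on either strand (on the other strand read GGCAAC), and in Cfap44 also the longer X-box. Cfap44 lies at chr16:44394549-44394798 (plus strand), Tekt1 at chr11:72361883-72362132 (minus strand), and Dynlrb2 at chr8:116504765-116505014 (plus strand). Tekt1 has another entry, chr11:72361297-72361546 (minus strand), in which the core was not found and which is not printed. The positions are those of the RefSeq table; no source used here names the build of the deposited values.

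Cfap44: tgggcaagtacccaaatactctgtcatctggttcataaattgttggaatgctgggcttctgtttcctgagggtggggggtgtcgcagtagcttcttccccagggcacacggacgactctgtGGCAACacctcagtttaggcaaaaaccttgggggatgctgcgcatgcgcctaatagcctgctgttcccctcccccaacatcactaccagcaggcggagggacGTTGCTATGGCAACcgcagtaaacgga

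Tekt1: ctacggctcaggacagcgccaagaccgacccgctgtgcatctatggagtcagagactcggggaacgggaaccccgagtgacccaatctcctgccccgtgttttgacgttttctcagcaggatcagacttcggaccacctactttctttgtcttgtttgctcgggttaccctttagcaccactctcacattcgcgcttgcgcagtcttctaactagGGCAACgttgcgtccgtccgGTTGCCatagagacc

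Dynlrb2: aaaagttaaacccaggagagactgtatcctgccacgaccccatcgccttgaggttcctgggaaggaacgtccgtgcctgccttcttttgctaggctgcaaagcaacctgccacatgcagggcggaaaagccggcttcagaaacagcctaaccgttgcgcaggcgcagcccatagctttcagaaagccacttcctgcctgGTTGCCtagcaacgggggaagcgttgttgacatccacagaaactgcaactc

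The core GTTGCC, on either strand, lay within the 250 bases before a start of 10 of the 19 tested ciliary members with a promoter in the table, against 11.8% of 27025 genes. The longer X-box, searched on both strands and overlapping a core match in Cfap44, was found in 4 of the 19, against 0.784% of all genes. A match is a description of the sequence. Zmynd10, which has an entry, has no match to these letters in its window. Mapk15, Rsph4a and Nptx2 have no entry.

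The ciliary differences were also taken by title number. The titles carry numbers whose meaning is not given, and 7 libraries of each group have numbers up to 28 and 3 have numbers from 33 on. Of the libraries named above for markers of neighbouring structures, tamoxifen 9, 15, 16, 18 and 27 and vehicle 1 and 3 lie in the lower range. Vehicle 41 lies in the upper. Their part in the contrast between the ranges was not tested. Of the 23 tested members, 21 were higher with tamoxifen in the lower range, with a median of 0.54, and 11 in the upper, with a median of -0.01. Over all genes 49.5% and 50.6% were higher. The difference between the ranges had an unadjusted p under 0.05 for 2 of the 23. Zmynd10 differed by 0.87 in the lower range and 0.03 in the upper. Mapk15 differed by 2.90 and 0.41, and Rsph4a by 1.02 and 0.31. The test of the difference between the ranges gave an unadjusted p of 0.00765 for Zmynd10, 0.0164 for Mapk15 and 0.219 for Rsph4a. Over all genes it called 0 with adjustment and 877 (5.74%) without.

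Choroid plexus epithelium makes cerebrospinal fluid, and Ttr, the thyroid hormone carrier transthyretin, is one of its markers. In these libraries Enpp2 and Kl had the highest means of the tested list members. Of 16 markers 10 passed the filter on low values. Among those not tested, Folr1 had 99 reads over the tamoxifen libraries and 97 over the vehicle libraries. Calml4 had 150 and 49, and Steap1 had 32 and 46. Of the 10 tested markers 8 were higher with tamoxifen, with a median difference of 0.38 and 2 at an unadjusted p under 0.05. Over all genes 49.4% were higher, and 1.73% were higher at that p. Ttr ranged from 4.40 through 6.38 to 7.57 with tamoxifen and from 1.97 through 5.23 to 6.31 with vehicle. The difference was 1.47 (SE 0.59, unadjusted p = 0.0215), with 2.06 in the lower range of title numbers and 0.09 in the upper. The level of this list reached 1.79 in tamoxifen library 9, which is also high for cilia (1.47) and for olfactory bulb. Without tamoxifen 9, vehicle 1 and vehicle 3, the median difference was 0.30 for cilia markers and 0.08 for choroid plexus markers. With the choroid list level as a covariate, the median of the cilia markers was 0.10, with 12 of 23 higher.

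**Figure D4:**
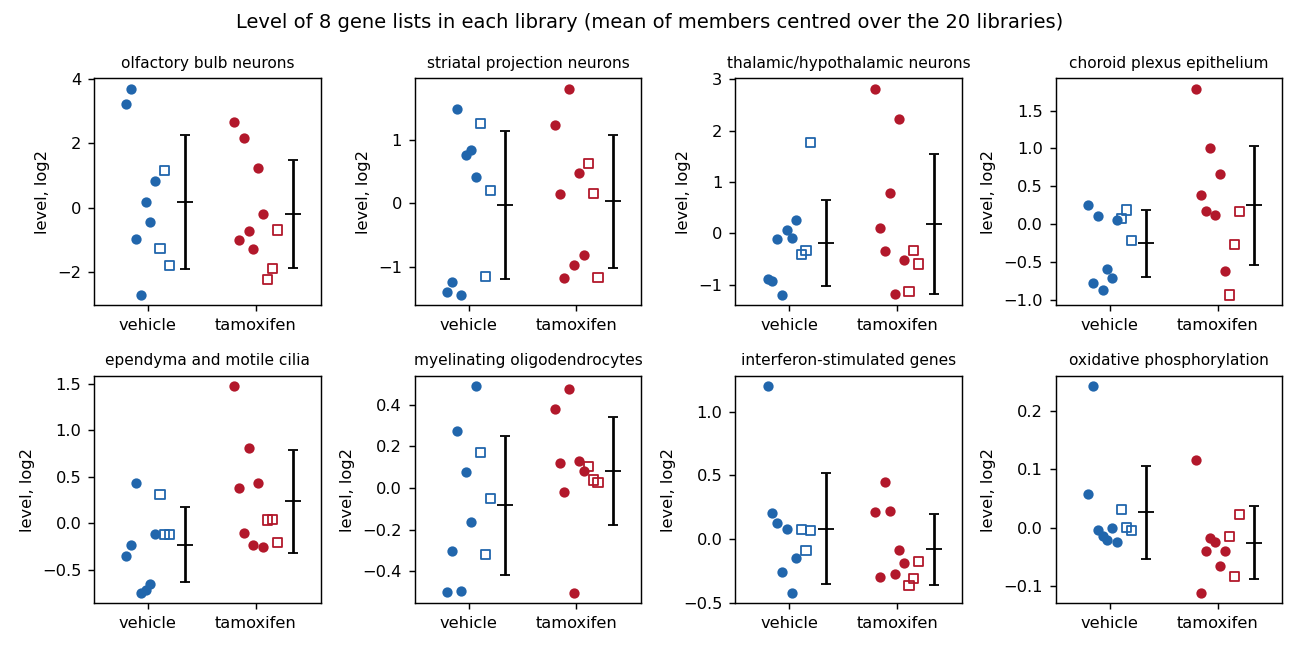
Level of 8 gene lists in each library, as the mean of the tested members after centring each over the 20 libraries (log2), with group mean and SD (n = 10 each). Filled circles are title numbers up to 28 and open squares those from 33 on. Tamoxifen library 9 is the highest of its group for choroid plexus, cilia and thalamic or hypothalamic markers, and vehicle library 1 is the highest for interferon-stimulated genes.

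Nptx2, the neuronal pentraxin that clusters glutamate receptors at synapses onto interneurons, had the lowest unadjusted p of all named genes. It ranged from 11.14 through 11.51 to 11.91 with tamoxifen and from 11.68 through 11.90 to 12.21 with vehicle. Only 1 of 10 tamoxifen values lay above the vehicle median. The difference was -0.39 (SE 0.09, 95% interval -0.58 to -0.21, unadjusted p = 0.00018, adjusted p 0.9998), which is 1.31-fold lower, and it was -0.46 and -0.24 in the lower and upper range of title numbers. In the other groups Nptx2 stood at 11.77 ± 0.40 in wild-type mice at 4 months and 12.08 ± 0.13 at 2 months (SD, n = 10 and 9), and at 11.46 ± 0.14 in the libraries labelled AKO (SD, n = 10). The list of late activity-regulated effectors to which it belongs had 14 of 19 members lower, with a median of -0.13, which was -0.04 without tamoxifen 9, -0.08 without vehicle 3 and -0.07 without vehicle 5. With 4 libraries rich in hypothalamic or basal forebrain markers left out, the list's median was 0.02 and Nptx2 differed by -0.28.

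The glutamate receptor list had 1 member and the neuropeptide list 2 members with an unadjusted p under 0.05, all lower with tamoxifen. Over all genes 1.57% were lower at that p. The interneuron, synaptic vesicle and postsynaptic lists had 0 members at that p, and the lists did not share a direction. Glutamate receptor subunits were 15 higher and 9 lower with a median of 0.02, synaptic vesicle genes 9 and 10, and postsynaptic genes 8 and 8. Interneuron markers were 5 higher and 13 lower with a median of -0.09, which was -0.02 without vehicle 1 and -0.01 without vehicle 3. Cort, which encodes cortistatin, a peptide of cortical interneurons, ranged from 5.97 through 6.69 to 6.99 with tamoxifen and from 6.55 through 7.10 to 8.09 with vehicle. The difference was -0.51 (SE 0.17, unadjusted p = 0.00686), and 0 of 10 tamoxifen values lay above the vehicle median. Grin2c, an NMDA receptor subunit, differed by -0.21 (SE 0.08, unadjusted p = 0.0189). Crhbp, the binding protein of corticotropin-releasing hormone, differed by -0.21 (unadjusted p = 0.0455). Sst, the somatostatin gene, differed in the other direction, by 0.22, with an interval from -0.26 to 0.70. The neuropeptide list as a whole had 7 of 18 members higher and 11 lower, with a median of -0.08 that ran from -0.15 to -0.02 with 1 library left out.

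Metabolic and protein-quality genes were measured closely and differed little. Of 73 subunits of oxidative phosphorylation, the mitochondrial respiratory chain, 70 had the lower mean with tamoxifen, with a median difference of -0.06, and all 73 intervals lay within 1.5-fold. Ndufa5, a complex I subunit, had the smallest unadjusted p of them (0.00638), with a difference of -0.12. Values of 27 of 31 proteasome subunits were lower, with a median of -0.04 and all 31 intervals within 1.5-fold. Over all genes 50.6% were lower and 83.2% of intervals lay within 1.5-fold. Members of a complex vary together between libraries, so a shared direction is not many independent results. Vehicle library 3 held the highest level of the oxidative phosphorylation list, at 0.24, and the rest of its group lay at or below 0.06. Without vehicle 3 the list's median was -0.03.

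Several pathways that amyloid-forming peptides are often studied for had 0 genes past the test, as had all 15270 genes together. Over all genes 83.2% of intervals lay within 1.5-fold, and 91.4% among those with 50 or more reads on average. Of 24 genes of amyloid processing and clearance, 23 intervals lay within 1.5-fold, and App, the amyloid precursor protein, differed by 0.07 (95% interval -0.14 to 0.28). All 21 endoplasmic reticulum chaperone and unfolded protein response genes had intervals within 1.5-fold, with Hspa5, the chief chaperone of that compartment, at -0.02 (-0.19 to 0.16). The same held for all 20 cytosolic heat shock genes, all 20 autophagy and lysosome genes and all 27 cholesterol synthesis genes. Of 18 microglial homeostatic genes 17 had such an interval. The interferon-stimulated list had 19 of 25 members lower with a median of -0.15, and Ifi44 at -0.82 (unadjusted p = 0.00744); vehicle library 1 carried the highest level of the list, at 1.20. The median was -0.01 without vehicle 1 and -0.23 without vehicle 5. Without vehicle 1, vehicle 3 and tamoxifen 9 the median of the list was 0.00.

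**Figure D5:**
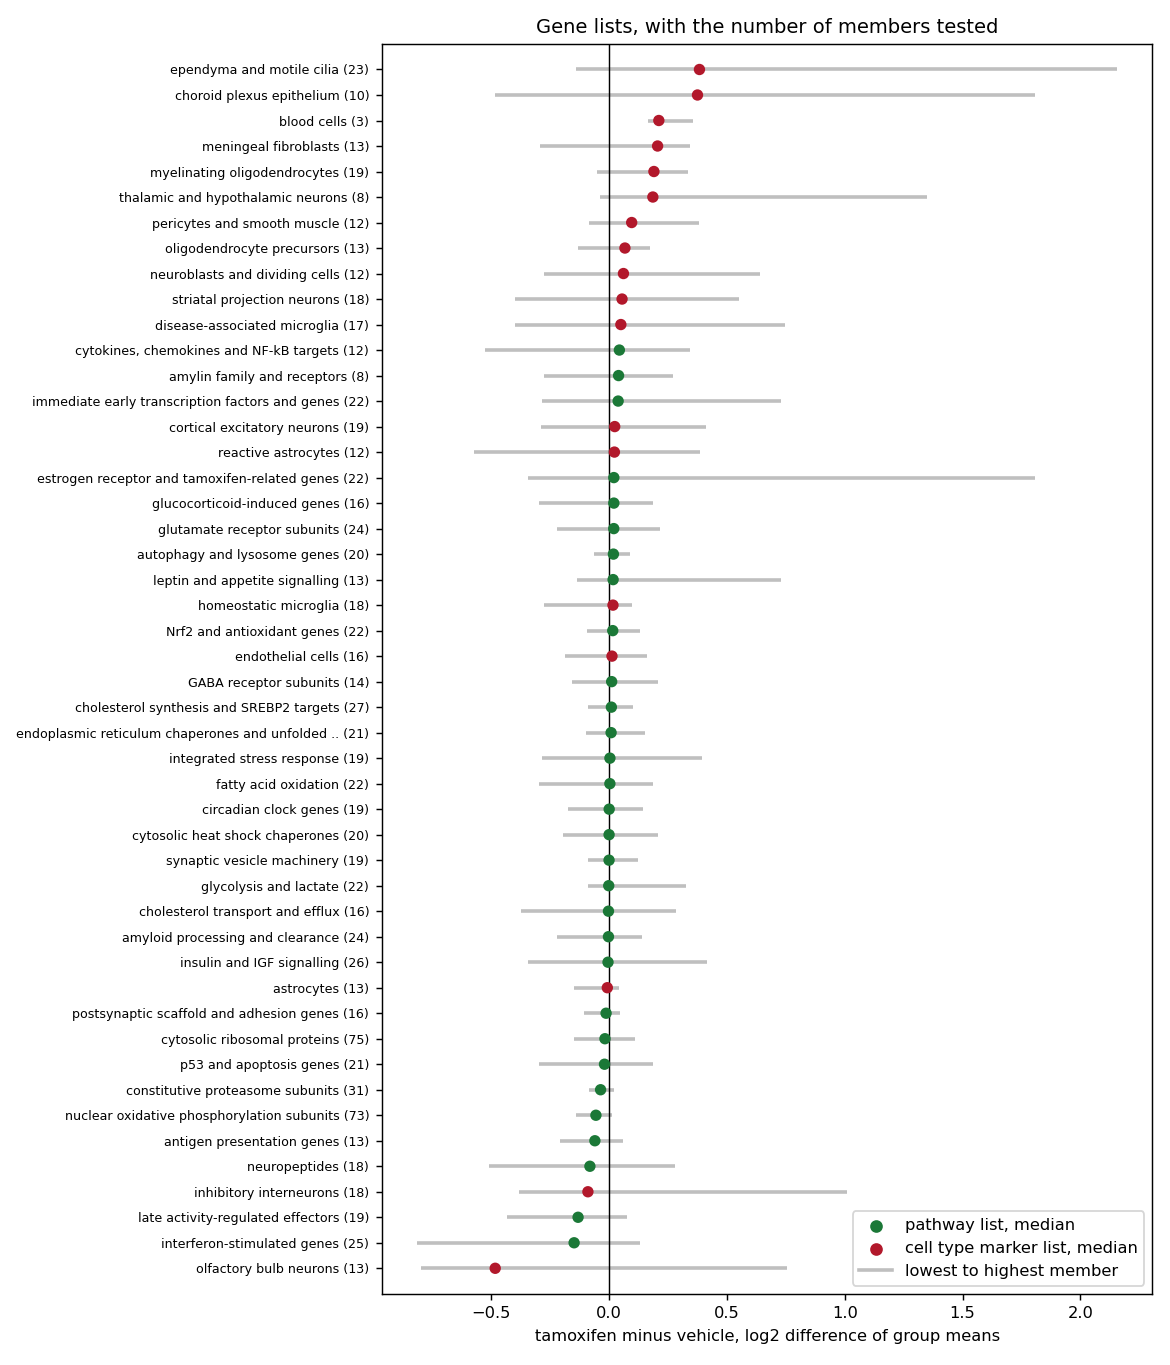
Median difference (tamoxifen minus vehicle, log2) of each list with at least 3 tested members, with the lowest to highest member as a bar and the number of members tested in brackets. Most medians lie near 0; cilia and choroid plexus markers lie at 0.38 and olfactory bulb markers at -0.48. With 1 library left out the cilia median ran from 0.21 to 0.45 and the olfactory bulb median from -0.90 to -0.12.

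Over 49 lists chosen for this tissue and treatment, 921 distinct members were tested, and 28 of them had an unadjusted p under 0.05, 19 higher and 9 lower with tamoxifen. That is 3.04% of the members, against 3.29% of all genes. None passed with adjustment. Of 19 markers of myelinating oligodendrocytes, the cells that wrap axons, 17 were higher in value, with a median of 0.19 and no unadjusted p under 0.05; without vehicle 1 the median was 0.12. Mbp, myelin basic protein, differed by 0.18. Without tamoxifen 9, vehicle 1 and vehicle 3 the median was 0.06. Markers of meningeal fibroblasts, the cells of the brain's outer coverings, numbered 12 of 13 with a higher mean; their median was 0.21, and 0.07 without the same 3 libraries. It was 0.03 without vehicle 3 alone and 0.13 without tamoxifen 16 or tamoxifen 18. Pericyte and smooth muscle markers were higher in 9 of 12, and Notch3, a receptor of vascular smooth muscle, differed by 0.20 with an unadjusted p under 0.05. Of 16 endothelial markers 9 were higher and all 16 intervals lay within 1.5-fold, against 49.4% and 83.2% of all genes.

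Immediate early genes, which neurons switch on within minutes of activity, had 13 of 22 members higher with a median of 0.04. Fos, the best known of them, differed by 0.23, and only 9 of the 22 intervals lay within 1.5-fold, since these genes varied widely between libraries. Circadian clock genes were split 10 to 9 around a median of 0.00, and 18 of 19 intervals lay within 1.5-fold. Insulin and IGF signalling genes were split 12 to 14, with 23 of 26 intervals within 1.5-fold. All 75 tested ribosomal protein genes had such an interval, with 58 lower and a median of -0.02. That median ran from -0.05 to 0.02 with 1 library left out. Over all genes 83.2% of intervals lay within 1.5-fold and 50.6% of means were lower.

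Other genes with the smallest unadjusted p were of mixed roles. Zwilch, a component of the mitotic checkpoint, differed by 0.39 (SE 0.09, unadjusted p = 0.000458), with all 10 tamoxifen values above the vehicle median and 0.40 and 0.36 in the lower and upper ranges of title numbers. Yrdc, an enzyme of transfer RNA modification, differed by -0.18 (SE 0.04, unadjusted p = 0.000251), and no tamoxifen value lay above the vehicle median. Mki67, a marker of dividing cells named as a list member, differed by 0.64 (unadjusted p = 0.00833). It had the highest difference of the 12 tested markers of neuroblasts and dividing cells and was the only 1 with an unadjusted p under 0.05. Of these markers 8 were higher and 4 lower, with a median of 0.06 that ran from 0.02 to 0.14 with 1 library left out. Mrvi1, whose product acts in signalling by nitric oxide and cyclic GMP in smooth muscle, differed by 0.48 (SE 0.13, unadjusted p = 0.00103). Mrvi1 was also the only gene past the adjusted threshold within a range of title numbers (0.00655% of genes): it differed by 0.76 in the lower range (limma, adjusted p = 0.013), where 1135 genes (7.43%) had an unadjusted p under 0.05, and by -0.17 in the upper, where 363 (2.38%) had one. The difference between the ranges was not past the threshold with adjustment (unadjusted p = 0.000124, adjusted p = 0.444).

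A difference in overall spread was not detected. The distance of a library to its group mean was 0.352 ± 0.091 with tamoxifen and 0.382 ± 0.136 with vehicle (root mean square over genes, SD, n = 10 each, permutation p = 0.578). Gene by gene, 0 genes passed the test of unequal spread, and 61.5% had the smaller mean absolute deviation with tamoxifen. An unadjusted p under 0.05 was seen for 905 genes (5.93%) with narrower spread with tamoxifen and 280 (1.83%) with wider. The 3 libraries farthest from their group mean were vehicle 3, tamoxifen 9 and vehicle 1, at 0.703, 0.574 and 0.515. Without them the counts were 306 and 623. They were picked for their distance and more of them are vehicle libraries, so this turn in direction is partly set by the choice.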

How the data were processed

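RNA of frontal cortex was sequenced from Illumina TruSeq Stranded mRNA libraries, per the labels' protocols. A single table was deposited, in which the authors give 24495 genes as log2 values in 50 columns; no source used here names the aligner, counter, build or normalization. Low values fall on whole multiples of 1 step per library (within 0.1 of a whole read for at least 99.92%), so a value is log2 of reads divided by a size factor, plus 1, and reads were recovered. Differences of weakly expressed genes are understated on this scale. A single column matched no sample and was not used, and 7 genes without whole reads were left out. Reads per library were 29.2 to 68.8 M (mega).

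Genes were tested if they reached 10 reads, at the median library, in 10 of the 20 libraries. The test was limma 3.58.1 (R 4.3.3), trend and robust, two-sided, with Benjamini-Hochberg adjustment at 0.05; permutation tests used scipy 1.17.1. The scripts were tested on simulated data. Named genes were the 12 smallest p in each direction with a mean of at least 5, the 5 largest differences in each direction, list members with an unadjusted p under 0.05 or the highest level, and genes leading components or spread; other named genes were chosen after their values were seen. Lists and members were chosen with earlier results of these data known. Mitochondrially encoded transcripts were not analysed here. Alternatives covered the normalization, offset, filter, covariates, sample weights and libraries left out.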

Additional observations from a re-analysis of the deposited data

Results flagged for a closer look

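In 28 of 208 groups of 10 libraries checked (13.5%), 1 library lay far from the others by Dixon's ratio at its 95% critical value; chance gives about 1 in 20. Among single genes, vehicle library 3 stood out at 6.38 for Rad54b, 2.33 for Best1 and 11.99 for Grin2c, vehicle 4 at 7.18 for Pcdha9, and vehicle 1 at 6.90 for Ifi44. Tamoxifen 9 stood out at 6.69 for Slc2a4 and 8.98 for S1pr3, and vehicle 5 at 4.17 for Slc2a4 and 8.81 for Notch3 (deposited log2 values).

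Among list levels (log2, centred over the 20 libraries), vehicle 3 stood out at 0.24 for oxidative phosphorylation, 0.32 for ribosomal proteins, -0.29 for cholesterol synthesis, -0.14 for glutamate receptors and -0.71 for cortical excitatory neurons. Tamoxifen 9 stood out at -0.50 for synaptic vesicles, -0.43 for postsynaptic scaffolds and -0.43 for cortical excitatory neurons. Vehicle 1 stood out at 1.20 for interferon-stimulated genes and 1.20 for antigen presentation. Tamoxifen 21 stood out at 0.29 for endoplasmic reticulum chaperones, 0.31 for heat shock chaperones, -0.40 for cytokines and -0.50 for myelin. The others were tamoxifen 33 at -0.24 for the amylin family, tamoxifen 16 at 0.14 for insulin signalling, vehicle 10 at -0.92 for immediate early genes, vehicle 5 at -0.59 for neuropeptides and vehicle 41 at 1.78 for thalamic and hypothalamic neurons.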

How the results depend on the processing

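The count of genes past the adjusted threshold was 0 in 39 of 40 alternatives. The exception used 2 principal components of the residuals as covariates, chosen after seeing the data, and called 114 genes, with 13.2% of genes at an unadjusted p under 0.05. These components are computed after the group difference is removed, so by construction they cannot move a difference and only shrink its error, which makes the p-values too small. With the first 2 components of the 20 libraries, group not removed, 0 genes passed, and 58 of the 114 had an unadjusted p under 0.05. A model of all 49 libraries raised the share at an unadjusted p under 0.05 to 5.55%; the cause was not tested. Leaving out 1 library at a time gave 2.46% to 4.06%. The difference in spread was -0.0305 and ranged from -0.0626 to 0.0180 with 1 library left out, turning sign without vehicle 3 (0.0180, permutation p = 0.666). Leaving out 3 or 4 libraries, 2 components of the 20 libraries, 3 regional levels and the cilia level were also chosen after seeing the data. The planned edgeR, DESeq2 and sva fits were not run; limma-voom was the fit on recovered reads. No paired analysis was possible because the groups share only 1 title number.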

Other observations

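Further list members with an unadjusted p under 0.05 are given here by their values. Cyr61, an immediate early gene for a matricellular protein induced by growth signals, ranged from 7.12 through 8.61 to 10.27 with tamoxifen and from 7.30 through 7.81 to 8.43 with vehicle, a difference of 0.73 (SE 0.28, unadjusted p = 0.0171). Npy2r, a receptor for neuropeptide Y, differed by 0.73 (SE 0.29, unadjusted p = 0.0212), by 1.09 in the lower and -0.12 in the upper range of title numbers. Icam1, an adhesion molecule of activated endothelium, differed by 0.34 (unadjusted p = 0.0284), and Slc2a4, the insulin-responsive glucose transporter, by 0.41 (unadjusted p = 0.0428). Outside the lists, Lgals9, a galectin of immune cells, differed by -0.24 (unadjusted p = 0.00495), with no tamoxifen value above the vehicle median. None of these passed with adjustment.

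Depth limits the genes with few reads: Mapk15 had 25.5 and 6.1 reads per library on average. Genes of neighbouring structures were measured less closely: the 95% interval in the olfactory bulb list reached up to 2.82 from its difference, against a median of 0.17 over all genes.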
